A study of Danio rerio with 28 samples.

Results

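The 10 genes described here, fosab, fosb, fosl1a, junba, junbb, jun, atf3, egr1, egr3 and nr4a1, encode transcription factors of the immediate early class. They were chosen by name, with earlier results of these data known, as were the lists of related genes below. Counts of called genes set beside the share of all genes are therefore descriptions. All 10 were found, each as 1 row, among the 16134 rows of the count table of experiment 1 and the 15419 rows of the table of experiment 2. All 10 also passed the filter on low counts in both tables. RNA was sequenced from guts dissected from zebrafish larvae 7 days after fertilization, with 10 to 15 guts pooled in each library, in 7 groups of 4 libraries. Experiment 1 compared wild type larvae with il22-/- larvae (the knockout), and the labels give no housing for either group. Experiment 2 held conventionally reared wild type and knockout larvae, germ-free (axenic) wild type and knockout larvae, and co-housed knockout larvae, whose tank mates the labels do not name. The labels name no other treatment and do not give the nature of the il22 allele.

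Immediate early genes are transcribed within minutes of a stimulus, without new protein synthesis, when growth factor, cytokine or stress signals reach serum response factor and related factors through MAP kinases. Fos and Jun proteins pair as leucine zipper dimers to form the factor AP-1, ATF3 is a stress-induced leucine zipper partner of the Jun proteins, EGR proteins bind DNA through zinc fingers, and NR4A1 is an orphan nuclear receptor. Zebrafish keep duplicate copies of several of these genes, such as junba and junbb, which correspond to the single JUNB of mammals. In mammals JUNB is also a target of STAT3, the factor that interleukin-22 activates in epithelial cells. Transcripts of this class are short-lived and are known to rise during tissue handling.

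In units of 1e+06 counts, libraries of experiment 1 held 30.24 to 37.95 and those of experiment 2 held 22.26 to 31. The gut label was borne out by all 7 enterocyte markers, which summed to between 9554 and 16946 CPM in a library. Exocrine pancreas markers summed to between 13599 and 53831 CPM, with ctrb1 and pnliprp1 at 0 or without a row. The part of pancreas in the members' levels was not tested. il22 checked the genotype labels in experiment 1, with 164 to 464 counts in the wild type libraries and 5 to 58 in the knockout libraries. In experiment 2 it held 0 to 25 counts in every library and checked no label. Skeletal muscle markers summed to 424 CPM in conventional wild type 1, 167 CPM in germ-free wild type 2 and 233 CPM in co-housed knockout 2, against at most 56.0 CPM elsewhere, with mylpfa and ckma at 0 or without a row. Values below are CPM, counts per 1e+06 counts of the scaled library, given as mean ± SD of the 4 libraries of a group. In pooled tissue, fewer cells of a type and less RNA per cell cannot be told apart.

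Among the Fos genes, fosab, the zebrafish c-Fos, had the widest range in CPM, although fosb spanned more on the fold scale in experiment 2, 129-fold over the libraries against 55.1-fold. In experiment 1 its mean was 154 ± 176 CPM for wild type against 33.8 ± 33 CPM for the knockout. In experiment 2 it ran from 71.7 ± 43.3 CPM in the conventional knockout through conventional wild type (39.9 ± 43.3), the co-housed knockout (15.9 ± 17.9) and germ-free wild type (13.3 ± 9.52) to the germ-free knockout (7.97 ± 6.14). fosb, a second Fos protein, was counted least of the 3, with 1.39 ± 1.16 CPM for wild type and 1.97 ± 1.47 CPM for the knockout in experiment 1. Experiment 2 gave 7.34 ± 6.57 CPM in the conventional and 4.74 ± 4.77 CPM in the co-housed knockout, 2.31 ± 3.08 CPM in conventional wild type, and 0.358 ± 0.298 and 0.323 ± 0.164 CPM in the germ-free knockout and wild type. The fosb values of both germ-free groups rested on few counts. fosl1a, which encodes the Fos relative FRA1, averaged 20.2 ± 10.2 CPM for wild type and 7.76 ± 1.29 CPM for the knockout in experiment 1. Its order in experiment 2 was the conventional knockout (19.2 ± 11.6 CPM), the co-housed knockout (12 ± 8.63), conventional (8.99 ± 3.49) and germ-free (8.11 ± 2.54) wild type, and the germ-free knockout (6.77 ± 4.61).

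Of the Jun genes, junba averaged 96.4 ± 71.8 CPM for wild type and 12 ± 5.1 CPM for the knockout in experiment 1. In experiment 2 its 5 group means lay within 1.72-fold of each other, with the conventional knockout first (12.5 ± 5.03 CPM), then germ-free wild type (10.2 ± 2.44), conventional wild type (9.13 ± 4.70), the germ-free knockout (7.55 ± 2.83) and the co-housed knockout (7.31 ± 3.57). Its duplicate junbb averaged 122 ± 93.8 CPM for wild type and 28 ± 8.71 CPM for the knockout in experiment 1. In experiment 2 junbb ran from 41.6 ± 17.6 CPM in the conventional knockout through wild type, conventional (27.7 ± 14.6) and germ-free (23.4 ± 4.93), and the co-housed knockout (20.4 ± 10.5) to the germ-free knockout (19.5 ± 7.13). jun, the zebrafish c-Jun, averaged 91.7 ± 32.9 CPM for wild type and 74.7 ± 10.8 CPM for the knockout in experiment 1. In experiment 2 the 3 knockout groups led, conventional at 127 ± 23.8 CPM, co-housed at 80.4 ± 14.7 CPM and germ-free at 66.7 ± 7.44 CPM, followed by wild type, conventional at 57.1 ± 9.26 CPM and germ-free at 52.7 ± 7.15 CPM. Per length, on the authors' TPM scale, jun had the highest mean of the 10 genes in 6 of the 7 groups, from 36.1 TPM in germ-free wild type to 94.2 TPM in the conventional knockout. The exception was wild type of experiment 1, where fosab led at 119.5 TPM.

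atf3 averaged 68 ± 31.5 CPM for wild type and 34.7 ± 10.8 CPM for the knockout in experiment 1. Its means in experiment 2 were ordered as those of fosl1a, from the conventional knockout (98.7 ± 33.4 CPM) through the co-housed knockout (42.9 ± 26.8), conventional wild type (36 ± 12) and germ-free wild type (26.6 ± 8.93) to the germ-free knockout (23.1 ± 4.11). egr1 averaged 46.6 ± 42.4 CPM for wild type and 6.95 ± 0.479 CPM for the knockout in experiment 1, the latter being the smallest SD it had in any group. In experiment 2 egr1 was highest in conventional wild type, at 16.1 ± 17.8 CPM, followed by the conventional knockout (14 ± 5.48), germ-free wild type (12.3 ± 2.04), the co-housed knockout (4.26 ± 2.56) and the germ-free knockout (3.86 ± 2.54). egr3 stayed between group means of 1.53 ± 0.858 CPM, in conventional wild type, and 4.08 ± 0.990 CPM, in wild type of experiment 1. The knockout of experiment 1 had 1.88 ± 0.442 CPM, and in experiment 2 the conventional knockout had 3.42 ± 2.11, the co-housed knockout 3.13 ± 2.06, germ-free wild type 3.08 ± 1.4 and the germ-free knockout 2.17 ± 1.87 CPM. nr4a1 averaged 15 ± 15.1 CPM for wild type and 3.74 ± 1.93 CPM for the knockout in experiment 1. In experiment 2 it ran from 23.9 ± 22.5 CPM in the conventional knockout through conventional wild type (9.8 ± 8.19), the co-housed knockout (7.32 ± 5.96) and germ-free wild type (2.48 ± 1.13) to the germ-free knockout (1.22 ± 0.53).

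The conventional knockout had the highest mean of the 5 groups of experiment 2 for 9 of the 10 genes, egr1 being the exception. These are not 9 separate results, because conventional knockout 4 was the highest library of that group for all 10 genes. The share of all genes with their highest mean in this group was not computed. Groups next to each other in these orders mostly overlapped. Of 40 neighbouring pairs in experiment 2, the libraries overlapped in 39. The remaining pair was egr1 in germ-free wild type, with 10.9 to 15.4 CPM, above the co-housed knockout, with 1.90 to 7.81 CPM. How often neighbouring groups overlap over all genes was not computed, so these counts are descriptions and egr1 is not shown to stand out.

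**Figure D1:**
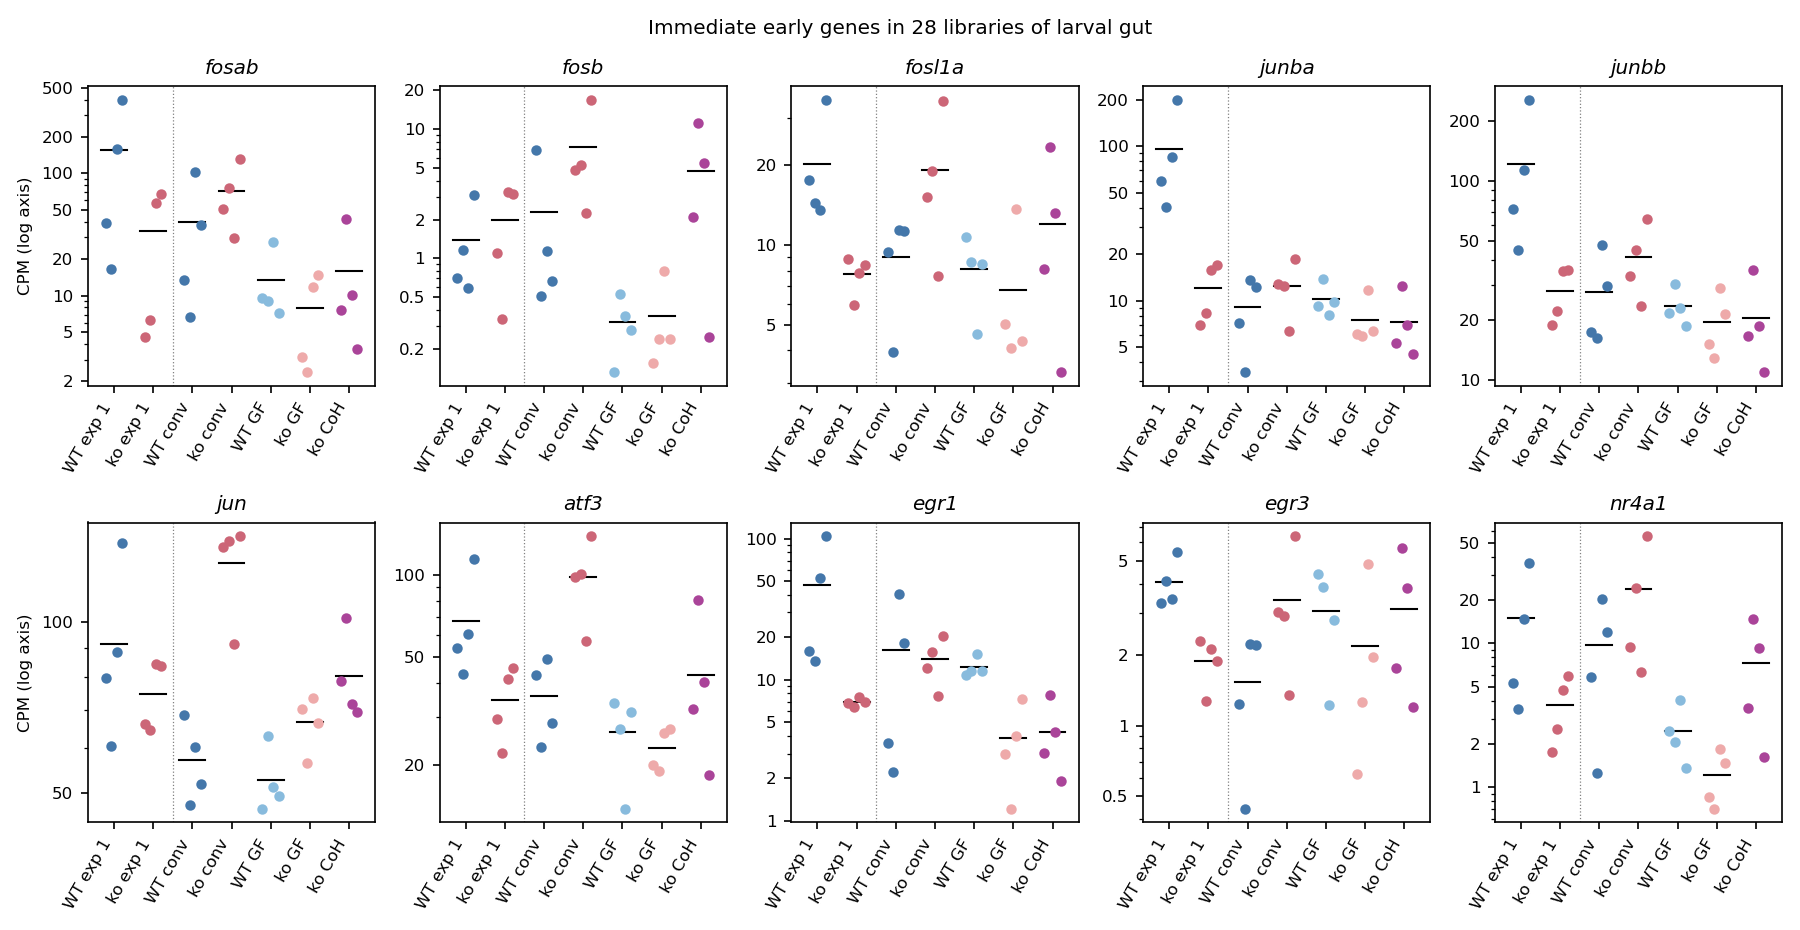
Level of each of the 10 genes (CPM, log axis) in every library, with 1 point per library and a bar at the group mean, for 4 libraries in each of 7 groups (WT, wild type; ko, il22 knockout; conv, conventional; GF, germ-free; CoH, co-housed). The dotted line separates the 2 experiments, which were counted separately. The 4 wild type points of experiment 1 for junba, from 40.7 to 200.6 CPM, lie above every other point in its panel.

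In several groups 1 library was high or low for most of the genes. In 3 of the 7 groups the same library was the highest for all 10 genes. These were wild type 4 of experiment 1, conventional knockout 4 and co-housed knockout 2. In 3 groups the same library was also the lowest for all 10 genes, namely conventional wild type 2, conventional knockout 3 and co-housed knockout 4. Conventional wild type 3 was the highest for 8 genes, all but fosb and jun, and germ-free knockout 3 for 7 genes. In germ-free wild type no library was the highest for more than 4 genes, and library 3 was the highest for fosab, egr1 and nr4a1 but the lowest for fosl1a, junba, atf3 and egr3. Knockout 1 of experiment 1 was likewise the highest for 2 genes and the lowest for 4. Co-housed knockout 2 is also 1 of the 3 libraries with muscle transcripts. Conventional wild type 1 was the highest of its group for fosb and jun, and germ-free wild type 2 for fosb, junba, junbb and jun, so that all 3 of these libraries were the highest of their groups for fosb and jun. The part of muscle tissue in these levels was not tested. Results that turn on these libraries are given below with and without them, for some comparisons only as the count of called members.

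**Figure D2:**
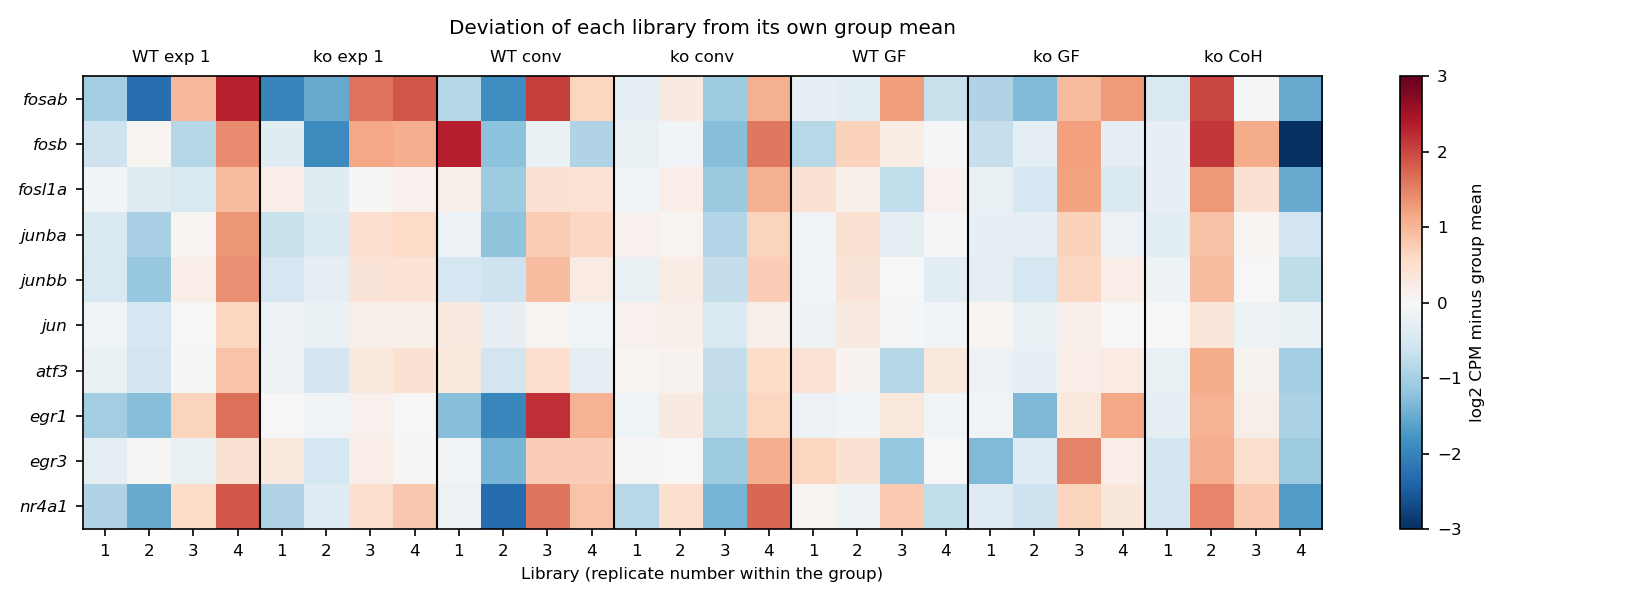
Deviation of each library from its own group mean (log2 CPM; red above, blue below, colours limited to 3 log2 units either way) for the 10 genes, in rows, and the 28 libraries, in columns by group and replicate number. Single columns are red or blue from top to bottom, such as wild type 4 of experiment 1 and conventional knockout 4, each the highest of its group for all 10 genes, and conventional knockout 3, the lowest for all 10.

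Correlations of each gene with fosab were computed over these deviations, which removes the differences between group means, for 9 genes in each experiment and 18 relations in all. In experiment 1, over 8 libraries, junba had r = 0.956 and rho = 0.976 (exact permutation p of 0.0017 and 0.0035 for r and rho, shuffling libraries within groups; adjusted p = 0.0045 for r over the 18 relations). The p of 0.0017 is the smallest that this exact test can give, and r for junbb and nr4a1 had the same p. The test takes no account of a match between replicate numbers, described below. Without wild type 2 and 4, the libraries farthest from the median of fosab, r for junba was 0.982. nr4a1 had r = 0.944 and rho = 0.952, junbb r = 0.917 and rho = 0.976, atf3 r = 0.903 and rho = 0.881, and jun r = 0.892 and rho = 0.952. These 4 relations had adjusted p-values for r of 0.0045 to 0.017 and kept r between 0.858 and 0.974 without the same 2 libraries. The relation of egr1 with fosab, r = 0.727 and rho = 0.810 (exact permutation p of 0.016 and 0.014), rested on those libraries, since r was 0.449 without them. fosb (r = 0.683), fosl1a (r = 0.517) and egr3 (r = 0.369) did not pass, with adjusted p-values for r of 0.12, 0.26 and 0.41 in the exact permutation test.

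In experiment 2, over 20 libraries, egr1 had the closest relation to fosab, with r = 0.912 and rho = 0.937. Its permutation p of 1e-05 is the smallest that 100000 resamples can give, and the adjusted p for r was 9e-05. junbb had r = 0.899 and rho = 0.895, nr4a1 r = 0.897 and rho = 0.884, and junba r = 0.768 and rho = 0.720, with permutation adjusted p-values for r of 9e-05 to 0.0045. Without conventional wild type 3 and co-housed knockout 2, r stayed at 0.889 for egr1, 0.841 for junbb, 0.869 for nr4a1 and 0.674 for junba. egr3 (r = 0.664), fosl1a (r = 0.645), atf3 (r = 0.567) and jun (r = 0.525) also passed, with adjusted p-values for r of 0.016 to 0.045, and had r of 0.603, 0.570, 0.374 and 0.420 without those 2 libraries. fosb, with r = 0.484 and rho = 0.514, did not pass (permutation adjusted p = 0.12 for r).

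The 10 genes outside the set whose deviations were most like the mean of the 10 members, of 10362 compared, were plk3, ptgs2b, jdp2b, spry4, dusp5, jund, si:ch211-39i2.2, cldnb, dusp2 and sik1. Their r with that mean was 0.907 to 0.991 over the 8 libraries of experiment 1 and 0.791 to 0.909 over the 20 of experiment 2, and is a description with no test. plk3, a polo-like kinase, led with 0.937 and 0.909, and ptgs2b, a zebrafish cyclooxygenase-2 gene, followed with 0.958 and 0.865. Of the 10, 7 belong to the lists of related genes used below: jdp2b and jund are AP-1 genes, spry4, dusp5 and dusp2 are inhibitors of MAP kinase signalling, and plk3 and sik1 are other immediate early genes.

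The spread among replicates, as the coefficient of variation that edgeR estimates for each gene beyond counting error, was wide. The median gene had 14.0% in experiment 1 and 14.2% in experiment 2. fosab had 108% and 81.6%, above 99.6% and 98% of all genes tested. fosb had 70.6% and 88.6%, nr4a1 71.7% and 74.2%, and egr1 59.5% and 67.2%. junba had 51.9% and 39.6%, junbb 51.0% and 39.0%, atf3 33.5% and 37.7%, and fosl1a 30.5% and 53.9%. egr3 had 22.8% in experiment 1 and 61.4% in experiment 2. jun had 23.5% and 15.4%, above 82% and 55.5% of genes, the least of the 10 in experiment 2. More than 90% of the genes tested had a smaller spread than 8 of the 10 members in experiment 1 and than 9 of them in experiment 2. A given fold change therefore had a larger error for fosab, fosb or nr4a1 than for jun.

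**Figure D3:**
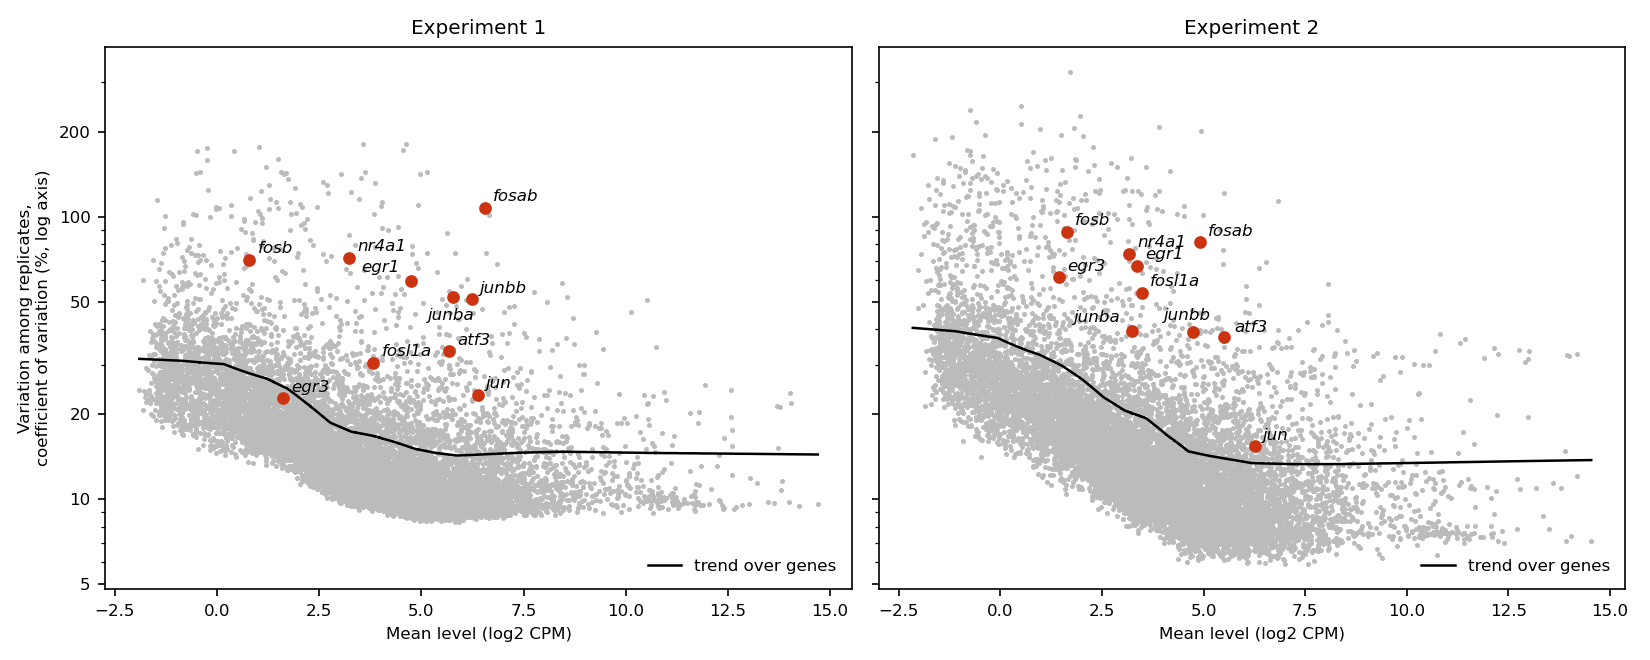
Coefficient of variation among replicates (%, log axis) against mean level (log2 CPM) for every gene tested in experiment 1 (left, 10710 genes) and experiment 2 (right, 11254 genes), with the trend over genes as a line and the 10 members in red. fosab, at 108% and 81.6%, stands far above the trend in both panels, while jun, at 23.5% and 15.4%, lies closest to the bulk of genes in experiment 2.

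The knockout was first compared with wild type in experiment 1. junba and junbb, both copies of junB, fosl1a, egr1 and egr3 were lower in the knockout, by 2.17-fold for egr3 to 8.0-fold for junba. In wild type libraries 1 to 4 junba stood at 59.3, 40.7, 84.9 and 200.6 CPM, and in knockout libraries 1 to 4 at 6.99, 8.37, 15.9 and 17.0 CPM. The groups did not overlap, and junba fell by 3.0 ± 0.58 on the log2 scale (SE; adjusted p = 0.00699). junbb was at 72.3, 45, 114 and 256 CPM in wild type and at 18.8, 22.2, 35.3 and 35.5 CPM in the knockout, again with no overlap (log2 fold change −2.12 ± 0.56, adjusted p = 0.0231). egr1, a zinc finger factor induced through serum response factor, was at 16, 13.6, 52.6 and 104 CPM in wild type and between 6.40 and 7.57 CPM in all 4 knockout libraries. Wild type 3 and 4 were several times higher than wild type 1 and 2, yet all 4 lay above every knockout library (log2 fold change −2.74 ± 0.68, adjusted p = 0.0188).

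fosl1a was at 17.6, 14.4, 13.6 and 35.3 CPM in wild type libraries 1 to 4 of experiment 1 and at 8.87, 5.93, 7.83 and 8.43 CPM in the knockout. These groups did not overlap either, and the log2 fold change was −1.38 ± 0.31 (adjusted p = 0.0103). egr3, a close relative of egr1, was at 3.31, 4.11, 3.44 and 5.47 CPM in wild type and at 2.28, 1.27, 2.11 and 1.87 CPM in the knockout, a log2 fold change of −1.12 ± 0.23 (adjusted p = 0.00483) with no overlap. The other 5 members did not pass. fosab gave −2.19 ± 1.26 (adjusted p = 0.230), with 16.6 to 401 CPM in wild type and 4.56 to 67.2 CPM in the knockout, ranges that overlapped. nr4a1 gave −2.0 ± 0.80 (adjusted p = 0.0963) and atf3 −0.97 ± 0.34 (adjusted p = 0.0634). DESeq2 called both, with adjusted p-values of 0.0374 for nr4a1 and 0.00649 for atf3, and limma on log2 TPM called atf3 at either pseudocount (adjusted p of 0.0431 and 0.0449). jun gave −0.30 ± 0.23 (adjusted p = 0.365) and fosb 0.50 ± 0.74 (adjusted p = 0.641). With a replicate block, described below, fosab, atf3 and nr4a1 were called and egr1 was not.

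In all, 5 of the 10 genes were called in experiment 1, all of them lower, where 33.1% of the 10710 genes tested were called and 17.0% were called lower. The same 5 were the members whose libraries did not overlap with the knockout below, beside 18.0% of all genes. The median log2 fold change of the 10 was −1.69, against −0.01 over all genes. junbb was no longer called without knockout 1 (−1.97, adjusted p = 0.0666) or knockout 2 (−2.03, adjusted p = 0.0649), and egr1 without any 1 of the 4 knockout libraries (−2.79 to −2.70, adjusted p of 0.0516 to 0.0579), so that 3 members were called without knockout 1 or 2. Without wild type 4, the highest library, the log2 fold changes of junba, junbb and egr1 were smaller, at −2.36, −1.46 and −1.98, with all 3 still called.

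Of 28 heat shock genes tested in this comparison, 12 were lower, 2 higher and 14 did not pass, beside 17.0% of all genes lower. Their median was −0.21 on the log2 scale, with hsp70l, an inducible HSP70 gene, at a log2 fold change of −2.51 ± 0.28 (adjusted p = 0.00018). The summed level of the list was 14220 to 15298 CPM in wild type and 12994 to 14935 CPM in the knockout, with hsph1 and hspe1 at 0 or without a row. Markers of skin epithelium summed to 374 to 637 CPM in wild type and 1021 to 1374 CPM in the knockout, where 1 of 3 tested was higher and 1 lower, with all 5 above 0. The part of either in the members' levels was not tested.

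In the conventional groups of experiment 2, jun and atf3 were higher in the knockout. jun was at 68.6, 47.7, 60.2 and 52.0 CPM in wild type libraries 1 to 4 and at 136, 139, 91.4 and 142 CPM in the knockout. Knockout 3 was the lowest of its group but still above every wild type library, and the log2 fold change was 1.15 ± 0.15 (adjusted p = 1.2e-05). atf3 was at 42.8, 23.4, 49.0 and 28.6 CPM in wild type and at 97.9, 101, 57.2 and 139 CPM in the knockout, likewise without overlap (1.46 ± 0.39, adjusted p = 0.00819). Both calls held with any 1 library left out, with log2 fold changes of 1.09 to 1.28 for jun and 1.25 to 1.65 for atf3. The other 8 members did not pass. Their log2 fold changes were 1.66 ± 0.91 for fosb, 1.29 ± 0.77 for nr4a1, 1.16 ± 0.65 for egr3, 1.09 ± 0.56 for fosl1a, 0.85 ± 0.86 for fosab, 0.59 ± 0.40 for junbb, 0.46 ± 0.41 for junba and −0.20 ± 0.69 for egr1.

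Thus 2 of the 10 genes were called, both higher and both without overlap, where 36.2% of the 11254 genes tested were called, 17.0% were called higher and 15.3% did not overlap in that direction. The median log2 fold change of the 10 was 1.12, against −0.02 over all genes. Without the 3 libraries with muscle transcripts fosb was also called, at 3.25 (adjusted p = 0.0104). In that fit conventional wild type 1 was absent, which held 6.91 CPM of fosb against 0.512 to 1.13 CPM in the other 3 libraries of its group. Macrophage markers were lower in the knockout for 2 of 3 tested and summed to 15.4 to 25.0 CPM in wild type and 8.27 to 15.7 CPM in the knockout, with mpeg1.1 and marco at 0 or without a row. Erythrocyte markers summed to 4.17 to 12.5 CPM and 2.74 to 3.96 CPM, without overlap, with 1 of 2 tested lower. All 7 enterocyte markers were called, 3 higher and 4 lower, as were 4 of 5 neutrophil markers, 2 higher and 2 lower, with summed levels that overlapped. The part of these cell types in the levels of jun and atf3 was not tested.

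In germ-free larvae none of the 10 genes was called between knockout and wild type by edgeR, where 26.8% of the 11254 genes tested were called. Of the 10, jun and egr1 had the smallest p, and DESeq2 called 0. jun was at 47.0, 63.1, 51.3 and 49.5 CPM in wild type and at 70, 56.5, 73.7 and 66.4 CPM in the knockout, overlapping in germ-free wild type 2 and germ-free knockout 2 (log2 fold change 0.34 ± 0.15, adjusted p = 0.111). egr1 was at 10.9, 11.6, 15.4 and 11.5 CPM in wild type and at 2.96, 1.22, 4.01 and 7.27 CPM in the knockout. All 4 knockout values lay below all 4 wild type values, beside 14.6% of all genes that did not overlap in that direction, and the log2 fold change was −1.67 ± 0.74 (adjusted p = 0.107). When the 2 germ-free groups were fitted alone, both passed, jun with an adjusted p of 0.0478 and egr1 with 0.0290. The other 8 members gave log2 fold changes between −1.01, for nr4a1, and 0.13, for fosb. Macrophage markers summed to 14.4 to 18.0 CPM in wild type and 6.98 to 11.5 CPM in the knockout, with 2 of 3 tested lower. Enterocyte markers summed to 11118 to 13560 and 9554 to 10837 CPM, with 1 of 7 higher and 3 lower. Skin epithelium markers summed to 778 to 1031 and 1141 to 1394 CPM, with 0 of 4 called. None of these lists overlapped between the groups, and their part in the members' levels was not tested.

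Whether the knockout effect depended on rearing was tested as an interaction, the germ-free effect minus the conventional effect. It was below 0 for all 10 genes, from −2.30 ± 1.2 for nr4a1 to −0.81 ± 0.21 for jun, with a median of −1.50. edgeR called none, where 0.444% of genes were called. The members rose and fell together among libraries, so equal signs, here and in the other comparisons, are not 10 separate results. The smallest p belonged to jun (adjusted p = 0.081) and then atf3 (−1.66 ± 0.56), and DESeq2 called jun alone (adjusted p = 0.0144).

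The knockout effect of experiment 1 was also set against that in conventional larvae of experiment 2, in 1 fit of 16 libraries. The difference, experiment 1 minus experiment 2, was below 0 for all 10 genes, with a median of −2.53 against 0.02 over all genes, and 6 of the 10 were called, where 9.92% of the 11047 genes tested were called and 5.07% called lower. junba gave −3.48 ± 0.78 (adjusted p = 0.0137), fosl1a −2.49 ± 0.63 (adjusted p = 0.0224) and junbb −2.73 ± 0.74 (adjusted p = 0.0342). atf3 gave −2.44 ± 0.50 (adjusted p = 0.00772), jun −1.46 ± 0.31 (adjusted p = 0.00769) and egr3 −2.29 ± 0.63 (adjusted p = 0.0320). For all 6 the log2 fold change was negative in experiment 1 and positive in experiment 2, such as −0.30 and 1.15 for jun. fosab (−3.06 ± 1.58), nr4a1 (−3.31 ± 1.30), egr1 (−2.56 ± 1.16) and fosb (−1.17 ± 1.30) did not pass. junbb was no longer called when any 1 of 8 of the 16 libraries was left out (−2.77 to −2.07, adjusted p of 0.0545 to 0.0691), namely wild type 3 or 4 or knockout 1 or 2 of experiment 1, conventional wild type 1 or 2, or conventional knockout 2 or 4. egr3 was lost without any 1 of 6, wild type 2 or 4 or knockout 2 or 4 of experiment 1, conventional wild type 1 or conventional knockout 4 (−2.30 to −1.81, adjusted p of 0.0508 to 0.0665), and junba gave −2.84 without wild type 4 of experiment 1.

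**Figure D4:**
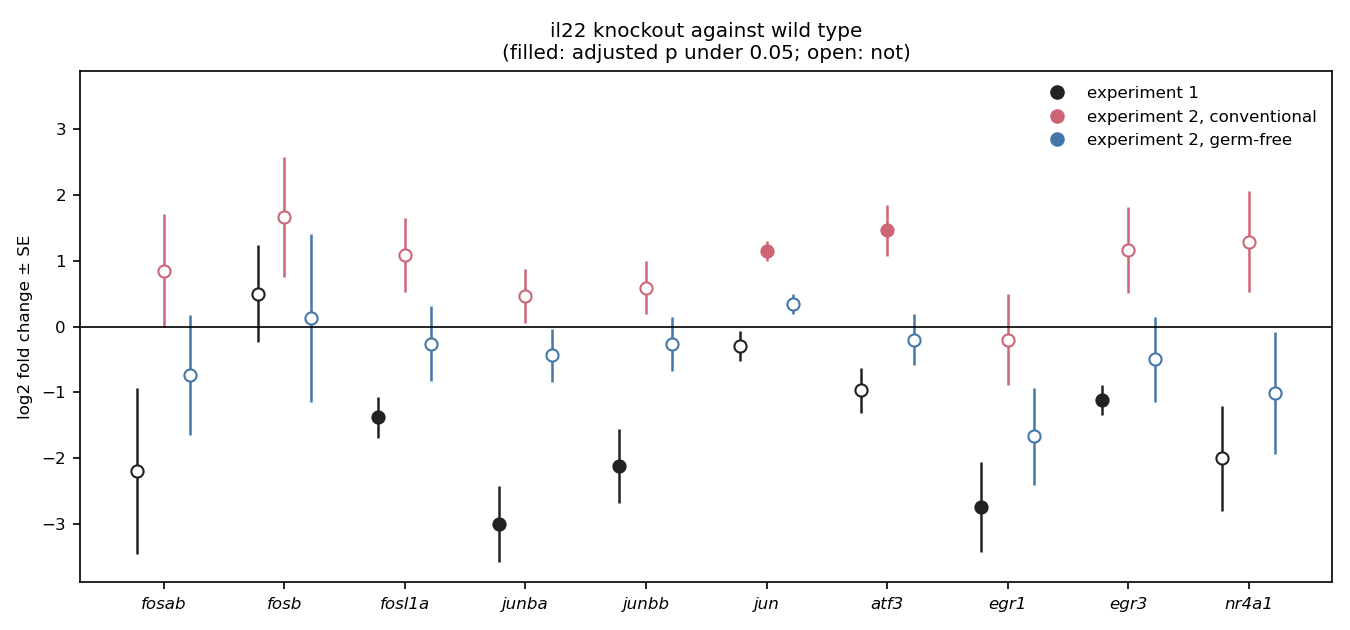
Log2 fold change of the il22 knockout against wild type (± SE, y axis) for the 10 genes in experiment 1, in conventional larvae and in germ-free larvae of experiment 2, with filled points for an adjusted p under 0.05 and open points otherwise. The filled points of experiment 1 lie below 0, from junba at −3.0 to egr3 at −1.12, while those of conventional larvae, jun at 1.15 and atf3 at 1.46, lie above it.

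Rearing was compared within each genotype. In the knockout, nr4a1, fosb, fosab, atf3 and jun were lower in germ-free than in conventional larvae, by 1.90-fold for jun to 20.3-fold for fosb. fosab was at 51.5, 75.2, 29.9 and 130.4 CPM in conventional knockout libraries 1 to 4 and at 3.15, 2.37, 11.7 and 14.7 CPM in germ-free knockout libraries 1 to 4. The groups did not overlap (log2 fold change −3.17 ± 0.95, adjusted p = 0.0209). fosb was at 4.82, 5.27, 2.27 and 17.0 CPM in conventional knockouts and at 0.156, 0.237, 0.801 and 0.238 CPM in germ-free knockouts, so that the highest germ-free library was below the lowest conventional library (−4.34 ± 1.1, adjusted p = 0.00805). nr4a1, whose product binds DNA as a nuclear receptor without a known ligand, was at 9.47, 24.1, 6.37 and 55.6 CPM in conventional and at 0.856, 0.710, 1.84 and 1.47 CPM in germ-free knockouts. It did not overlap between the groups (−4.29 ± 0.92, adjusted p = 0.00299).

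atf3 was at 20.1, 19.1, 26.2 and 27.1 CPM in germ-free knockouts, all below the 57.2 to 139 CPM of the conventional knockouts (log2 fold change −2.09 ± 0.40, adjusted p = 0.00132). jun, at 56.5 to 73.7 CPM in germ-free knockouts, lay below the 91.4 to 142 CPM of conventional knockouts (−0.93 ± 0.15, adjusted p = 0.000333). The remaining members did not pass, at −1.86 ± 0.74 for egr1, −1.50 ± 0.57 for fosl1a, −1.09 ± 0.41 for junbb, −0.73 ± 0.41 for junba and −0.65 ± 0.64 for egr3. All 10 values were below 0, with a median of −1.68 against 0.01 over all genes. Of the 10 genes 5 were called, all lower, where 27.2% of the genes tested were called and 13.3% were called lower. With egr1, 6 members did not overlap, beside 16.2% of all genes in that direction. fosab was no longer called without conventional knockout 4 (−2.71, adjusted p = 0.0549), germ-free knockout 1 (−2.90, adjusted p = 0.0585) or germ-free knockout 2 (−2.87, adjusted p = 0.0577). Without conventional knockout 4, the library highest for all 10 genes, fosb gave −3.51 and nr4a1 −3.44, and without germ-free knockout 3 fosb gave −5.11, each still called. Smooth muscle markers summed to 2338 to 2876 CPM in conventional and 1918 to 2305 CPM in germ-free knockouts, with 1 of 3 tested lower and cnn1b at 0 or without a row. Enterocyte markers summed to 10871 to 11791 CPM and 9554 to 10837 CPM, with 2 of 7 higher and 3 lower and none at 0. Neither list overlapped between the groups, and their part in the members' levels was not tested.

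In wild type, edgeR called none of the 10 genes between germ-free and conventional larvae, where 25.2% of genes were called. fosb and nr4a1 had the smallest p of the 10, and DESeq2 called both (adjusted p of 0.0163 and 0.0398). nr4a1 was at 5.81, 1.26, 20.2 and 12 CPM in conventional wild type and at 2.46, 2.07, 4.03 and 1.36 CPM in germ-free wild type. The low conventional library 2 overlapped the germ-free range (log2 fold change −1.99 ± 0.83, adjusted p = 0.0901). fosb gave −2.81 ± 1.1 (adjusted p = 0.0696) and fosab −1.58 ± 0.89 (adjusted p = 0.208), and the other members lay between −0.44, for atf3, and 1.01 ± 0.66, for egr3. Without conventional wild type 1, the library with muscle transcripts that held 6.91 CPM of fosb, the value of fosb was −1.22, and without conventional wild type 3 that of fosab was −0.54. Smooth muscle markers summed to 2463 to 3618 CPM in conventional and 1889 to 2399 CPM in germ-free wild type. Of 3 tested 2 were lower, with cnn1b at 0 or without a row. Liver markers summed to 82.6 to 211 CPM and 25.4 to 81.3 CPM, with 0 of 7 called. Neither list overlapped between the groups, and their part in the members' levels was not tested. Whether the rearing effect differs between the genotypes is the interaction given above, in which edgeR called none of the 10.

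The co-housed knockout was compared with the conventional knockout, the germ-free knockout and conventional wild type. These comparisons share libraries with those above and with each other, so the values stand side by side and are not independent. Against the conventional knockout, jun alone was called. It was at 78.7, 102, 71.9 and 69.4 CPM in co-housed libraries 1 to 4, where only co-housed 2 overlapped the conventional knockout through its library 3 at 91.4 CPM (log2 fold change −0.66 ± 0.15, adjusted p = 0.0240). The call of 1 gene compares with 2.59% of all genes called and 1.09% called lower. It was lost when any 1 of 6 of the 8 libraries was left out (−0.65 to −0.59, adjusted p of 0.0668 to 0.0980) and held without conventional knockout 3 or co-housed knockout 2. It was also lost when the 2 groups were fitted alone (−0.65, adjusted p = 0.0752).

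All 10 log2 fold changes of the co-housed against the conventional knockout were below 0, with a median of −0.90 against 0.002 over all genes. These signs are not independent of each other. fosab gave −2.16 ± 0.90 (adjusted p = 0.224), egr1 −1.71 ± 0.73 (adjusted p = 0.239), nr4a1 −1.69 ± 0.79 (adjusted p = 0.277), atf3 −1.20 ± 0.39 (adjusted p = 0.11) and junbb −1.02 ± 0.41 (adjusted p = 0.200). None of these passed. Without the libraries with muscle transcripts, which removes co-housed 2, atf3 was called with jun, at −1.70 (adjusted p = 0.0222). In co-housed libraries 1 to 4 atf3 stood at 32.1, 80.7, 40.4 and 18.4 CPM, and egr1 at 3.05, 7.81, 4.27 and 1.90 CPM, with library 2 the highest and library 4 the lowest for both.

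Against the germ-free knockout, fosb alone was higher in the co-housed knockout, where 7.27% of genes were called and 3.93% called higher. fosb was at 2.09, 11.1, 5.50 and 0.248 CPM in co-housed libraries 1 to 4 and at 0.156 to 0.801 CPM in germ-free knockouts. Co-housed library 4 lay within the germ-free range, and the log2 fold change was 3.72 ± 1.09 (adjusted p = 0.0489). This call was lost in 7 of the 8 fits with 1 library left out, all but that without co-housed 4 (2.86 to 4.47, adjusted p of 0.0697 to 0.192), the lowest value being that without co-housed 2 and the highest that without germ-free knockout 3. nr4a1 gave 2.59 ± 0.90 (adjusted p = 0.0872) and atf3 0.90 ± 0.39 (adjusted p = 0.170). The other 7 members lay between −0.04, for junba, and 1.01, for fosab.

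Against conventional wild type, jun alone was higher in the co-housed knockout, where 33.2% of genes were called and 16.1% called higher. All 4 co-housed libraries, at 69.4 to 102 CPM, lay above the 47.7 to 68.6 CPM of conventional wild type (log2 fold change 0.49 ± 0.15, adjusted p = 0.0183), beside 13.1% of all genes that did not overlap in that direction. The call was lost without conventional wild type 2 (0.43, adjusted p = 0.0577) or co-housed knockout 2 (0.34, adjusted p = 0.0873). egr1 gave −1.91 ± 0.74 (adjusted p = 0.0560), and without the libraries with muscle transcripts it was called at −2.72 (adjusted p = 0.0219), as was fosab at −2.78 (adjusted p = 0.0435). In conventional wild type egr1 stood at 3.57, 2.22, 40.5 and 18.3 CPM, and libraries 1 and 2 lay within the co-housed range. Of 4 exocrine pancreas markers tested, 3 were higher in the co-housed knockout and 0 lower. They summed to 26021 to 53831 CPM, against 14258 to 27991 CPM in conventional wild type. Of 7 liver markers 3 were lower and 0 higher, and of 7 enterocyte markers 2 were higher and 3 lower. The part of these tissues in the members' levels was not tested.

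**Figure D5:**
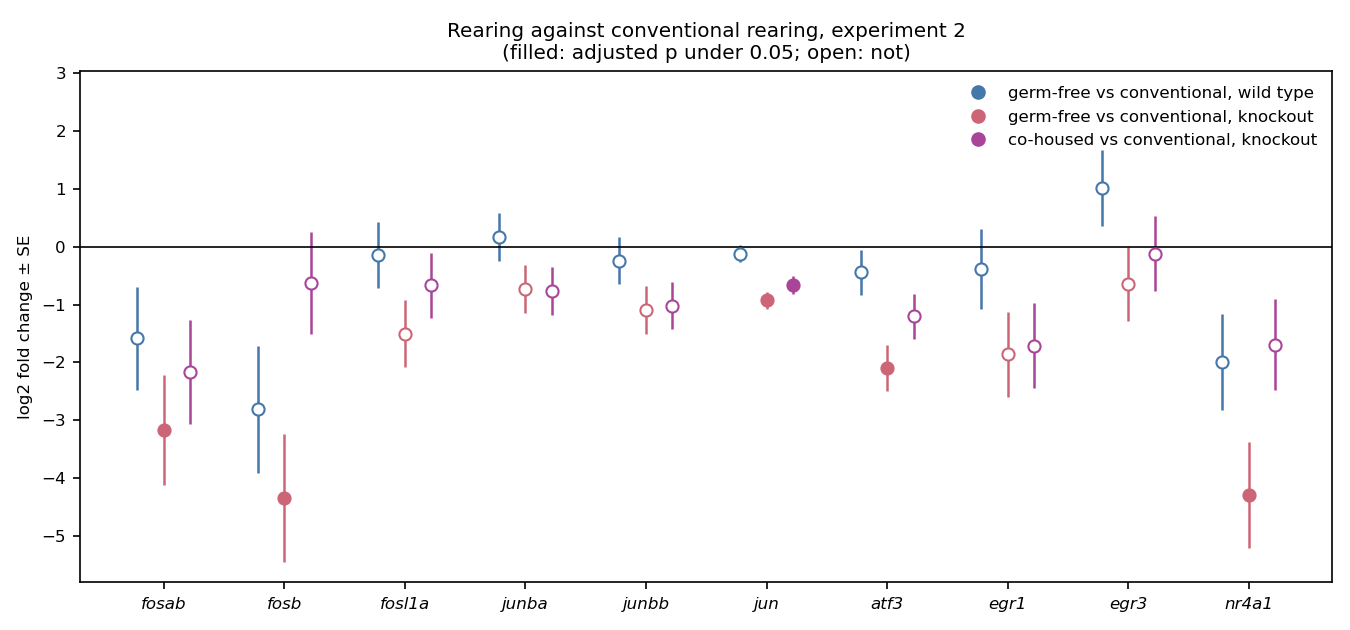
Log2 fold change against conventional rearing (± SE, y axis) for the 10 genes in germ-free wild type, germ-free knockout and co-housed knockout larvae of experiment 2, with filled points for an adjusted p under 0.05. Of the filled points, fosb and nr4a1 in germ-free knockouts lie lowest, at −4.34 and −4.29, and jun is filled for both rearings of the knockout, at −0.93 and −0.66. The germ-free and co-housed knockouts were compared with the same 4 conventional knockout libraries.

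Lists of genes related to the members were counted next. Each count is to be read beside the share of all genes called, which was 33.1% for the knockout in experiment 1, 36.2% for the knockout in conventional larvae and 27.2% for germ-free rearing in the knockout. The list of other AP-1 subunits and partners also held more distant leucine zipper genes, such as nfe2l2b and creb1a. Of its 13 tested genes, 2 were lower and 2 higher in the knockout of experiment 1. batf3, which encodes a small leucine zipper protein that pairs with Jun proteins in mammals, was among those lower (log2 fold change −2.69 ± 0.55, adjusted p = 0.00575). Those higher were nfe2l2b (1.12 ± 0.27) and nfe2l2a (0.55 ± 0.07), and jund was not called (0.89, adjusted p = 0.0526). In conventional larvae 3 were higher and 1 lower in the knockout, and jund, the third kind of Jun gene, rose by 1.64 ± 0.28 on the log2 scale (adjusted p = 0.000189) and fosl2, a further Fos relative, by 0.67 ± 0.19 (adjusted p = 0.0122). In germ-free against conventional knockouts 4 were lower and 2 higher. Those lower were jdp2b, which encodes a partner of Jun proteins (−3.11 ± 0.59, adjusted p = 0.00109), nfe2l2b (−2.64 ± 0.31), jund (−1.30 ± 0.28, adjusted p = 0.00236) and fosl2 (−1.01 ± 0.20). Those higher were creb1a (0.86 ± 0.15) and mafk (0.36 ± 0.12).

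Of 5 other EGR and NR4A genes tested, nr4a2b was lower in the knockout of experiment 1 (−0.77 ± 0.25, adjusted p = 0.0372). egr2a was higher in the conventional knockout of experiment 2 (1.70 ± 0.61, adjusted p = 0.0357). nr4a3, the third of the NR4A receptors, was lower in germ-free than in conventional knockouts (−2.99 ± 0.74, adjusted p = 0.00700) and no other gene of this list was called there. Among 4 tested genes of the serum response factor pathway, srfb was lower (−1.16 ± 0.17, adjusted p = 0.000838) and srfa higher (0.56 ± 0.09, adjusted p = 0.00188) in the knockout of experiment 1. mrtfab, a coactivator of serum response factor, was lower there (−0.28 ± 0.10). A list of kinases upstream of the members also held hbegfb, which encodes a growth factor. Of its 22 genes tested in experiment 1, 4 were higher and 3 lower in the knockout, a share near that of all genes. Of its 24 genes tested in experiment 2, 11 were higher and 3 lower in germ-free than in conventional knockouts. Among those higher were mknk2b (0.95 ± 0.16, adjusted p = 0.000371) and mknk1 (0.79 ± 0.14, adjusted p = 0.000475). hbegfb was among those lower (−1.06 ± 0.18, adjusted p = 0.000487).

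Genes of other proteins of the immediate early class were counted as well. Of 41 tested in experiment 1, 7 were higher and 7 lower in the knockout, beside 33.1% of all genes called. Their median log2 fold change was near 0, at −0.0002. In germ-free against conventional knockouts 22 of 42 were lower and 6 higher, beside 13.3% of all genes lower, with a median of −0.75, against 0.01 over all genes. myca, a MYC gene (−1.73 ± 0.19, adjusted p = 1.8e-05), klf6a (−1.18 ± 0.15) and per1b, a clock gene (−2.69 ± 0.38), were among those lower, and id3 (1.02 ± 0.13) among those higher. In wild type the same rearing comparison gave 12 lower and 5 higher of 42, beside 25.2% of all genes called. In co-housed against conventional knockouts 10 were lower and 4 higher, beside 2.59% of all genes called, with cebpd lower by the smallest p (−1.24 ± 0.17, adjusted p = 0.000944).

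Inhibitors that these signals induce in feedback, such as the dual specificity phosphatases that inactivate MAP kinases, gave 3 higher and 3 lower of 21 in the knockout of experiment 1, with dusp2 at −1.44 ± 0.37 (adjusted p = 0.0172) and dusp6 at −0.65 ± 0.12 (adjusted p = 0.00304). In conventional larvae 5 were higher and 2 lower in the knockout. nab2, a corepressor of EGR proteins, was higher (1.23 ± 0.33, adjusted p = 0.00719) and dusp6 lower (−1.07 ± 0.20, adjusted p = 0.000422). In germ-free against conventional knockouts 9 were lower and 5 higher, and dusp8a (−1.42 ± 0.18), dusp6 (−1.30 ± 0.21) and errfi1a (−1.06 ± 0.15), an inhibitor of the EGF receptor, were among those lower. In co-housed against conventional knockouts 6 were lower and none higher, where 1.09% of all genes were lower. Among the 6 were nfkbiaa (−1.02 ± 0.19, adjusted p = 0.00922) and nfkbiab (−0.88 ± 0.15, adjusted p = 0.00549), inhibitors of NF-κB, and dusp1 (−0.90 ± 0.18, adjusted p = 0.0138). Heat shock genes gave 5 lower and 4 higher of 29 in germ-free against conventional knockouts, near the 27.2% of all genes called.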

How the data were processed

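RNA was sequenced from 28 libraries of pooled larval guts, 8 in experiment 1 and 20 in experiment 2, as paired reads of 100 bases from a stranded kit, per the labels' protocols. The authors deposited raw counts per gene and TPM, which they normalized for gene length and library total. FastQC 0.11.8 and build danRer11 stand in the submitters' processing notes, and what aligned and counted the reads, with which strand setting and gene models, is not given in the sources used here. Transcript identifiers of experiment 1 were named through RefSeq (GRCz12tu; 15776 of 16134 rows), and 910 of the 15419 symbols of experiment 2 were updated, which gave 14927 names in both tables. Each member has a row of its own, but reads of close duplicates such as junba and junbb could have been split by the counting.

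Counts were tested with edgeR 4.0.16 in R 4.3.3 (TMM, filterByExpr, robust quasi-likelihood F test, Benjamini-Hochberg adjustment over all genes, threshold 0.05). All adjusted p-values of genes come from this test unless another is named. Each experiment had a fit of its own, that of experiment 2 over its 5 groups. The difference of knockout effects between experiments came from a further fit of 16 libraries, which joined both tables over shared names. Levels were tested only within a table. SEs were taken from the log2 fold change and the root of its F statistic. Each library is a separate pool, so p-values measure the spread between pools. Depth, in units of 1e+06 counts, was 22.26 to 37.95, and no 2 libraries of a group agreed within counting noise. Correlations used 100000 resamples or every arrangement. The named genes are the 10 members, up to 4 genes of smallest p per list and direction, and the 10 most alike. The members and lists were chosen with earlier results of these data known. Alternatives were DESeq2 1.42.0, its size factors, no filter, limma 3.58.1 on log2 of TPM plus 1 or 0.1, a replicate block, the compared groups alone, summed rows, and libraries left out. The edgeR fit was also run on simulated counts, drawn from its own estimates with genes and libraries independent. Such counts cannot show how the fit treats genes that vary together among libraries.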

Additional observations from a re-analysis of the deposited data

Results flagged for a closer look

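In 8 of the 70 groups of values, 10 genes in 7 groups, 1 library lay far from the other 3. For normally distributed values chance gives such a gap in about 1 in 20 groups. The CPM values were not tested for normality and the groups share libraries, so the count of 8 is a description only. Of these, 7 were high. Germ-free knockout 3 stood out for fosl1a (13.7 CPM against 4.06 to 5.02), junba (11.8 against 5.92 to 6.40) and fosb (0.801 against 0.156 to 0.238). Germ-free wild type 3 stood out for fosab (27.5 CPM against 7.21 to 9.62) and egr1 (15.4 against 10.9 to 11.6). Co-housed knockout 2 stood out for fosab (42.4 CPM against 3.64 to 10.1) and conventional wild type 1 for fosb (6.91 against 0.512 to 1.13), both libraries with muscle transcripts. The low value was jun in conventional knockout 3 (91.4 CPM against 136 to 142).

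The effect of the knockout differed between experiment 1 and the conventional groups of experiment 2 for 6 members, tested in 1 fit of 16 libraries. The differences of log2 fold changes were −3.48 for junba, −2.73 for junbb, −2.49 for fosl1a, −2.44 for atf3, −2.29 for egr3 and −1.46 for jun. The labels give no housing for experiment 1 and no time of processing. Rows were transcript identifiers in experiment 1 and gene symbols in experiment 2. Experiment, any difference in housing and the way rows were counted cannot be told apart in this difference.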

How the results depend on the processing

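Of 367 alternative values for the 21 called results of single genes, 317 stayed called and 50 did not, and none changed direction. Counts of called members moved as follows. With DESeq2 they were 7 instead of 5 in experiment 1 (atf3 and nr4a1 added), 2 instead of 0 for germ-free against conventional wild type, 8 instead of 5 for germ-free against conventional knockouts, 2 instead of 1 for each comparison of the co-housed knockout, and 1 instead of 0 for the interaction. For knockout against wild type in germ-free larvae the count was 1 with limma at either pseudocount and without the libraries with muscle transcripts, and 2 with the groups fitted alone, instead of 0. For the co-housed against the germ-free knockout it was 0 instead of 1 without the filter, with limma at either pseudocount, with the replicate block, without the muscle libraries and with the groups alone. Without the muscle libraries it was 2 for the co-housed against the conventional knockout (0 with the groups alone) and 3 for the co-housed knockout against conventional wild type, instead of 1. The cause of these shifts was not tested, apart from the libraries that some settings leave out.

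Leaving out 1 library at a time gave counts of 3 to 7 in experiment 1, 2 to 3 in conventional, 0 to 0 in germ-free larvae, 0 to 1 and 4 to 7 for germ-free rearing in wild type and knockouts, 0 to 2, 0 to 2 and 1 to 3 for the co-housed knockout against conventional knockout, germ-free knockout and conventional wild type, 0 to 1 for the interaction and 4 to 6 between experiments.

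Some small, uncalled log2 fold changes changed sign. egr1 in the conventional knockout (−0.20) gave 0.46 and 0.60 with limma at pseudocounts 1 and 0.1 and 0.16 with the replicate block, and −0.54 to 0.81 with libraries left out. In germ-free against conventional wild type, egr1 gave 0.24 and 0.37 with limma and −0.72 to 0.62 with libraries left out, junba −0.11 without the muscle libraries and −0.08 to 0.42, fosl1a −0.38 to 0.05 and junbb −0.41 to 0.14. Between co-housed and germ-free knockouts, the values without the muscle libraries were −0.17 for fosab, −0.34 for junbb and −0.33 for egr1, with −0.01 and −0.02 for junbb with limma, and the ranges with libraries left out were −0.16 to 1.49, −0.34 to 0.32 and −0.33 to 0.65, and −0.43 to 0.26 for junba. Between the co-housed knockout and conventional wild type, fosl1a gave −0.11 and atf3 −0.15 without the muscle libraries, with ranges of −0.15 to 0.74, −0.26 to 0.51 and −1.04 to 0.20 for fosl1a, atf3 and nr4a1. fosb in germ-free larvae gave −0.63 to 0.46, and fosb and egr3 in co-housed against conventional knockouts −1.50 to 0.21 and −0.60 to 0.37.

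Over all genes tested, replicate numbers did not pair the samples. Same-numbered libraries correlated in their deviations at −0.0838 to 0.289 over 4 pairs in experiment 1 (median −0.0201, 1 above 0.1). In experiment 2 the range was −0.431 to 0.359 over 40 pairs (median −0.0164, 8 above 0.1). In experiment 1, fosab deviated by −1.02, −2.27, 0.98 and 2.31 log2 units in wild type 1 to 4. Knockouts 1 to 4 had −1.99, −1.51, 1.63 and 1.87. junba, junbb, jun and nr4a1 were likewise below their group means in 1 and 2 and above in 3 and 4 of both genotypes. egr1 had the same signs, but its deviations in knockouts 1 to 4 were small, at −0.00866, −0.116, 0.124 and 0.000841. fosb, fosl1a, atf3 and egr3 did not have them, atf3 only through wild type 3, at −0.0656. The exact permutations shuffled each genotype alone and take no account of such a pairing. With the replicate block, 7 members were called in experiment 1 (egr1 lost, adjusted p = 0.0558; fosab, atf3 and nr4a1 gained, adjusted p of 0.00988, 0.00248 and 0.0173), 2 in conventional and 0 in germ-free larvae, 0 and 5 for germ-free rearing in wild type and knockouts, 1, 0 and 1 for the co-housed comparisons, 0 for the interaction and 4 between experiments, with the block nested. Groups of 4 pools and the spread of fosab, fosb and nr4a1 limit what could be detected, and fosb in germ-free larvae is limited by its few counts.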

Other observations

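The share of each gene within its family was computed from the authors' TPM after the values had been seen, and is a description with no test. junba made up 46.7% ± 2.02 (SD, n = 4) of the summed TPM of junba and junbb in wild type of experiment 1, and 31.1% ± 2.71 in the knockout. The 4 wild type libraries, at 44.6% to 49.4%, lay above the 4 knockout libraries, at 28.6% to 34%, although the level of junba itself ran from 40.7 to 200.6 CPM among those wild type libraries. In experiment 2 the group means of this share were 24.6% to 32.1%, and no library exceeded 36.2%.

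Within the Fos genes, fosab held 73.6% ± 2.21 of the summed TPM of fosab, fosb and fosl1a in the conventional knockout, with 71.3% to 75.7% in its libraries, although fosab itself ran from 29.9 to 130.4 CPM among them. In the co-housed knockout the share of fosab was 46.0% ± 8.87, from 35.0% to 54.9%, and fosb took 13.4% ± 7.21. The largest fosb share in any library was 25.3%, in conventional wild type 1, a library with muscle transcripts.

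Levels of the 2 tables, which were scaled separately, were also set side by side. junba was the only member whose 4 wild type libraries of experiment 1 (40.7 to 200.6 CPM) were all above every library of the other 6 groups (at most 18.7 CPM). Its mean in wild type of experiment 1 was 10.6 times that in conventional wild type of experiment 2, against 4.4 times for junbb, 1.60 times for jun and 0.603 times for fosb. The share of all genes with such a separation or ratio was not computed, so neither is shown to be particular to junba.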
